A study of Rattus norvegicus with 3 samples.

Results

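The transcriptome of the rat retina taken 12 h after an episode of raised eye pressure was compared with that of a control retina. The comparison took in every gene that reached a CPM of 1 (counts scaled to a library of 1000000) in either of the 2 libraries, which left 15242 of the 32883 genes in the deposited tables, and it used 2 of the study's 3 libraries. Both came from Sprague-Dawley rats at postnatal day 60, and total RNA was depleted of ribosomal RNA before directional libraries were made from 3 µg. In the HIOP library (high intraocular pressure) the pressure in the eye had been raised to 110 mmHg through a saline-filled needle in the anterior chamber for 60 min, then lowered, and the animals survived for 12 h. The CTL library is labelled as receiving no treatment, whereas the protocol describes a sham operation with a needle in the anterior chamber at 2.66 kPa, and the labels do not settle which applies. How many retinas or animals went into each library is not given in the sources used here. The libraries held 16090064 counts (CTL) and 17221510 counts (HIOP).

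Raising eye pressure above the pressure of the retinal arteries stops blood flow, and releasing it lets the blood return. Neurons of the inner retina, the ganglion and amacrine cells, are known to be the most easily injured by such an episode, while rods are more often spared. Müller glia span the retina and clear potassium, water and glutamate, and after injury they and the microglia are known to release signals that call leukocytes in.

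With 1 library on each side there is no spread between animals to set against a difference, so no test was made and no p-value is given. Each fold is the ratio of counts after scaling to library size, followed in brackets by an exact 95% interval from the 2 counts. Copies of 1 molecule cannot be told from separate molecules here, since no molecular identifiers are described, and the intervals cover counting error only. Where a library had no count, the fold is a lower bound set by a floor of 3 counts. Medians of gene lists are on a log2 scale, with 2 counts added to each library in proportion to its size, and TPM (a level scaled by transcript length to a sum of 1000000 per library) is given where genes are compared with each other. In whole-tissue RNA, fewer cells of a type and less RNA per cell cannot be told apart.

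The 2 libraries were alike for most genes and far apart for a few. The median log2 ratio over all 15242 genes was 0.00, and the central 90% of genes lay between -1.24 and 1.54. The genes past 2-fold numbered 1336 on the higher side (8.77% of those compared) and 1249 on the lower side (8.19%). These shares are the background against which the gene lists below are read. The extremes were lopsided: 513 genes were at least 4-fold higher against 209 lower, 127 against 11 at 16-fold, and 27 against 0 at 100-fold. The plot of ratio against level shows the same, with a red cloud that reaches far higher than the blue cloud reaches down. Of the genes compared, 53 had no count in CTL, and 5 had none in HIOP. The minimum of 1 CPM was met in HIOP alone by 614 genes, 427 of them at least 2-fold higher, and in CTL alone by 621, 371 of them at least 2-fold lower. Such genes are compared because of the library in which they are high, so their direction is in part set by the minimum, and lists with many of them are marked below. Of the 14007 genes that met it in both libraries, 909 were higher and 878 lower. The intervals of 5248 genes (34.4%) held a ratio of 1.

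**Figure D1:**
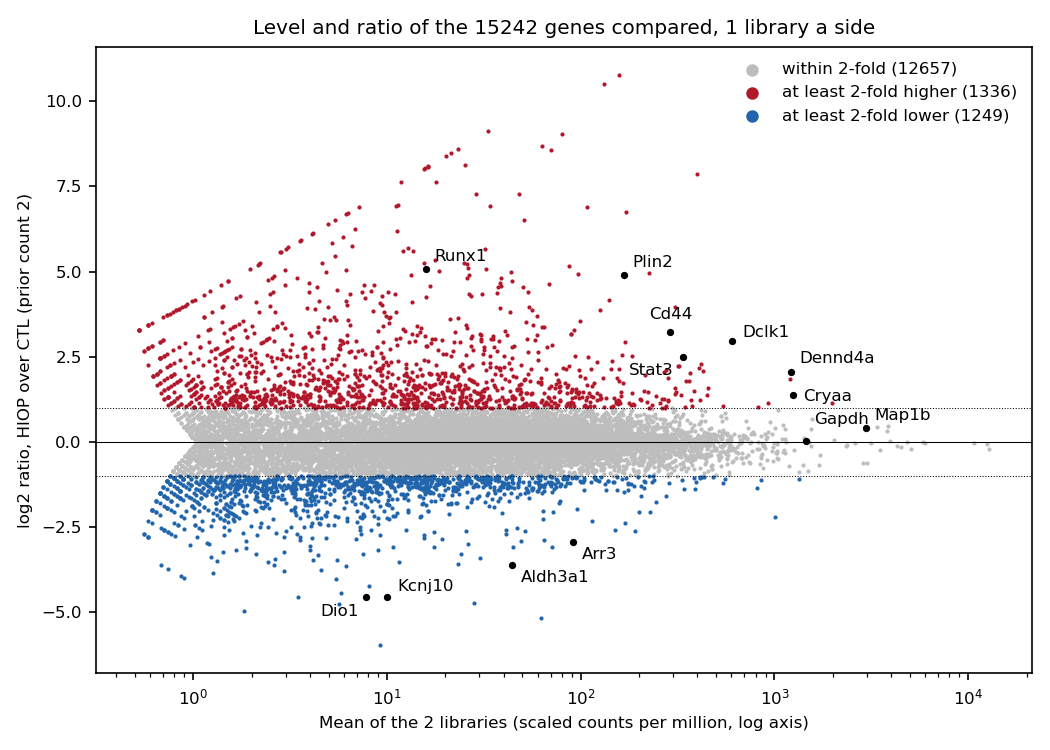
Each point is 1 of the 15242 genes compared; the horizontal axis is the mean level of the 2 libraries in CPM on a log axis, and the vertical axis is the log2 ratio of HIOP over CTL. Red points (1336) lie at 2-fold or more above CTL and blue points (1249) at 2-fold or more below, with 1 library a side, so points near the left edge rest on few counts.

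Differences past 2-fold were commoner among weakly expressed genes. In the 20% of genes with the lowest mean CPM, 16.3% were past 2-fold on the higher side and 18.7% on the lower side, against 4.79% and 2.59% in the 20% with the highest. Gene size went with direction. In the 20% of genes with the shortest span on the chromosome, 12.8% were higher and 7.50% lower, with a median log2 ratio of 0.14, and in the 20% with the longest span 4.54% were higher and 11.8% lower, with a median of -0.24. The deposited TPM, which is scaled by transcript length, gave medians of 0.00 and -0.34 for the same groups. Many neuronal genes are long and many cytokine genes short, and the part that gene size had in the results below was not tested.

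Genes that were higher took 2.36% of scaled counts in CTL and 7.75% in HIOP, and genes that were lower took 4.65% and 1.83%. Of the 1336 higher genes, 938 (70.2%) were also at least 2-fold higher in TPM, as 895 (71.7%) of the 1249 lower genes were at least 2-fold lower. The TPM ratio pointed the other way for 8 and 9 of them. Another 62 and 92 were at 0 TPM in both libraries, and how the counts and the TPM come to differ there is not given in the sources used here.

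Both libraries carried the markers of retina. Sag, rod arrestin, had 51347 counts in CTL against 53170 in HIOP, and the 19 rod phototransduction genes together took 3.94% and 3.59% of scaled counts. Neighbouring tissue was also present in both and differed between them, which touches several results below. All 23 lens genes were compared, and their summed share was 0.160% in CTL and 0.451% in HIOP (18 higher, 1 lower). For 17 genes of cornea and conjunctiva the share was 0.0758% and 0.0294% (0 higher, 13 lower). Of these, 5 met the CPM minimum in CTL alone, and of the other 12 there were 8 lower. The 17 pigment epithelium genes held 0.116% and 0.0711% (1 higher, 12 lower), and 6 muscle genes held 0.00765% and 0.00335% (0 higher, 5 lower). Of the muscle genes, 2 met the CPM minimum in CTL alone, and of the other 4 there were 3 lower. The part of these tissues in the results was not tested. Without the listed genes of lens, cornea, pigment epithelium, ciliary body and iris, muscle, red blood cells and myelin, 1311 genes were higher and 1217 lower of 15150.

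In absolute terms most of the largest gains were in genes that the control retina already expressed strongly, and none of the 12 was a cytokine or interferon gene. Dennd4a, which encodes an activator of Rab GTPases, had 7609 counts in CTL against 33856 in HIOP, or 471 to 1972 CPM, and was 4.18-fold higher (4.08 to 4.29). Impg2, a proteoglycan of the matrix around photoreceptors, had 20003 and 46944 counts and was 2.21-fold higher (2.17 to 2.24). Agtpbp1, an enzyme that trims glutamate side chains from tubulin, had 8480 and 32252 counts and was 3.58-fold higher (3.49 to 3.66).

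Dclk1, a kinase that binds microtubules, went from 137 to 1075 CPM, 7.83-fold higher (7.49 to 8.18). Prom1, a membrane protein of the outer segment discs, had 9333 and 21735 counts and was 2.19-fold higher (2.14 to 2.24), and Cryaa, the alpha A crystallin of the lens, whose list was higher as a whole, was 2.62-fold higher (2.56 to 2.67). Pde6a and Gnat1, both of the rod light response, were among the 12 largest gains with a ratio of 1.37 (between 1.36 and 1.39) and a ratio of 1.26 (between 1.246 and 1.27), and so was Map1b, a microtubule protein, with a ratio of 1.32 (between 1.303 and 1.34). These are small ratios of large counts. LOC500712, a gene known here only by its identifier, had 53 counts in CTL against 13540 in HIOP, 240.2-fold higher (184 to 321).

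The 12 largest losses held the rod genes Gnb1, Pde6b and Gngt1, whose ratios lay within 2-fold. RGD1560925, listed as Pdzph1 in the RefSeq gene table, had 26586 counts in CTL against 6088 in HIOP and was 4.64-fold lower (4.52 to 4.78). Pdc (phosducin, which binds the beta and gamma subunits of transducin) had 29497 and 14658 counts and was 2.14-fold lower (2.10 to 2.18). Dkk3, a secreted protein made by Müller glia, was 2.18-fold lower (2.13 to 2.23). Gains over all genes summed to 13.5% of scaled counts, and the 100 genes with the largest gains made up 27.9% of that sum.

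**Figure D2:**
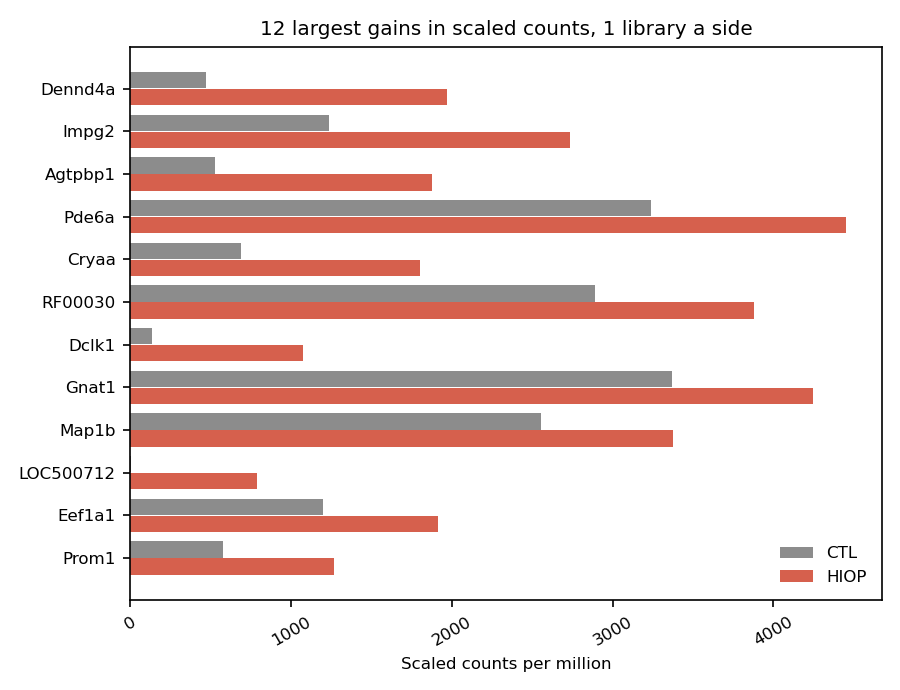
Bars give scaled CPM in CTL (grey) and HIOP (red) for the 12 genes with the largest gain, with 1 library a side. Dennd4a, Agtpbp1 and Dclk1 stand out by their ratio, LOC500712 has hardly any bar in CTL, and Pde6a, Gnat1 and Map1b gain many counts at a ratio within 2-fold.

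Genes were next read by function, in 101 lists of cell types, pathways and protein families, with 2227 distinct genes among those compared. Among the 100 lists with at least 5 genes compared, 15 had over 50% of their members at least 2-fold higher, and 6 had over 50% at least 2-fold lower. In 6 lists no member passed 2-fold in either direction: rod phototransduction, the nuclear and the mitochondrial genes of the respiratory chain, chaperones of the endoplasmic reticulum, proteasome subunits and autophagy. The plot of list members shows the lists of immune signalling at the top right and those of inner retinal neurons, Müller glia and cornea at the lower left.

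**Figure D3:**
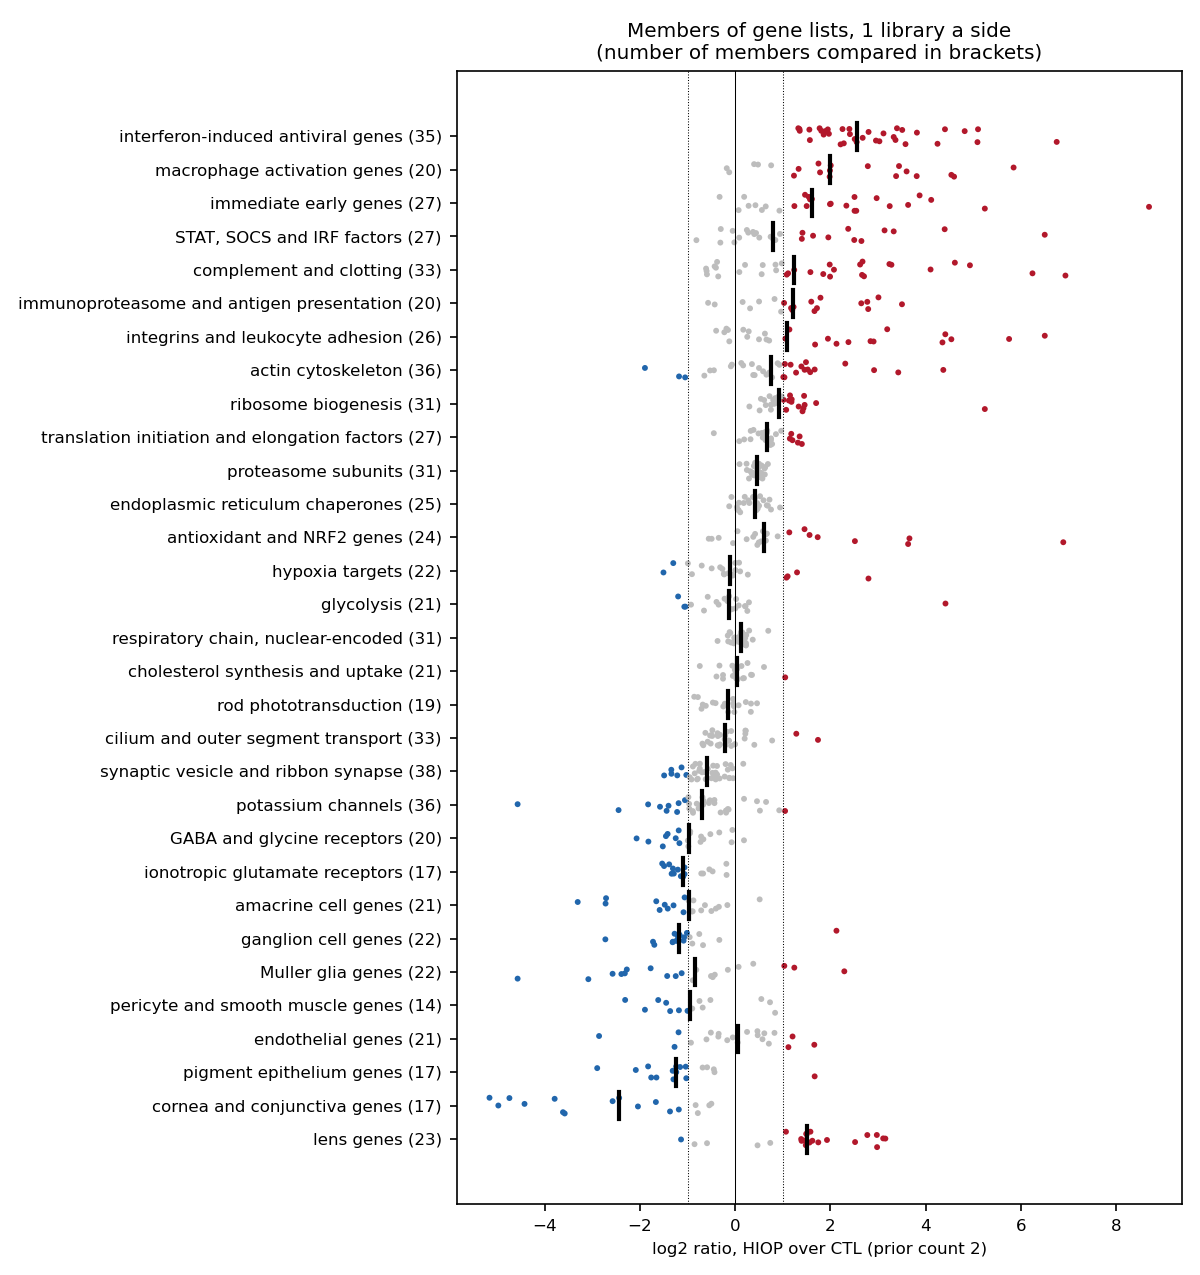
Each point is 1 gene of a list, placed by its log2 ratio of HIOP over CTL (1 library a side), red at 2-fold or more higher and blue at 2-fold or more lower; black bars are list medians and brackets give the number of genes compared. The interferon list lies wholly to the right of the 2-fold line, the proteasome list sits between 0 and that line, and all cornea genes lie to the left of 0.

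Many receptors and ligands of cytokines were higher. Of 35 receptor genes, 24 were at least 2-fold higher and 2 lower, with a median of 1.35. In 12 of them the CPM minimum was met in HIOP alone, and of the other 23 there were 13 higher and 2 lower (median 1.14). Of 49 ligand genes 40 were compared, and 26 of these met the minimum in HIOP alone, 11 with no count in CTL, so they are compared because they are high in HIOP. The other 14 ligand genes had 5 higher and 2 lower (median 0.61). Csf2rb, the signalling chain shared by receptors for 3 growth factors of myeloid cells, had 12 counts in CTL against 596 in HIOP and was 46.7-fold higher (26.5 to 90.9). Il18rap, a chain of the interleukin-18 receptor, had 0 and 76 counts and was at least 23.8-fold higher. Both genes are known mainly from leukocytes. Of 21 neutrophil genes 14 had no count in CTL, and all 21 together had 63 counts in CTL against 2926 in HIOP. Only 11 met the CPM minimum, 10 of them in HIOP alone, so how many of these were higher carries no further information. The part of incoming cells in the results on immune genes was not tested.

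Some single genes of the interleukin-6 family, ligands as well as receptors, were higher. Lif and Clcf1, 2 ligands of this family, had 16 and 619 counts and 26 and 884 counts, and were 36.4-fold higher (22.2 to 64.04) and 31.97-fold higher (21.7 to 49.2). Osmr, the receptor chain for oncostatin M, had 64 and 1652 counts and was 24.3-fold higher (18.9 to 31.7), and Il6st, the chain that all of these receptors share, was 2.34-fold higher (2.24 to 2.45). On the scale of levels, Il6st stood at 66.3 TPM in CTL and 143 TPM in HIOP and Osmr at 1.06 to 32.02 TPM. The ligands that were lower were Cxcl12 (2.32-fold, 2.01 to 2.68) and Cxcl14 (2.23-fold, 1.92 to 2.60), which are made by resting tissue.

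Among 27 genes of STAT, SOCS and IRF proteins, 11 were higher and none lower (median 0.80). Stat3, which carries the signal of the interleukin-6 family to the nucleus, had 1627 counts in CTL against 9807 in HIOP and was 5.67-fold higher (5.38 to 5.98), with 27.1 TPM in CTL and 136 TPM in HIOP. Cish, an inhibitor induced by STAT proteins, was 21.6-fold higher (17.2 to 27.6), and Jak3, a kinase of leukocyte receptors, was 8.96-fold higher (7.27 to 11.1). Irf7, which drives interferon genes, was 10.5-fold higher (7.63 to 14.7).

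Among the 20 genes of the NF-kB system, the transcription factor family of inflammation, 9 were higher and none lower (median 0.95). All 20 had a log2 ratio above 0. Bcl3, a nuclear partner of NF-kB, had 20 and 870 counts and was 40.9-fold higher (26.3 to 67.3), and the subunit genes Relb and Nfkb2 were 7.94-fold higher (5.86 to 10.99) and 7.75-fold higher (6.16 to 9.87). The inhibitor gene Nfkbia was 2.52-fold higher (2.35 to 2.71). Tnfaip3, another inhibitor that NF-kB induces, had 1655 and 1813 counts and a ratio of 1.03 (between 0.963 and 1.10).

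Each interferon-induced gene that was compared was higher. All 35 (of 36) were at least 2-fold higher, the 29 that met the CPM minimum in both libraries included (median 2.55, and 2.15 in TPM), against 8.77% of all genes. Gbp5, a GTPase that acts on microbes in the cytosol, had 22 counts in CTL against 872 in HIOP and was 37.3-fold higher (24.5 to 59.8), and Ifit3, which blocks foreign RNA, was 36.3-fold higher (24.996 to 54.9). Ifitm3, a membrane protein that hinders viral entry, reached the highest TPM of the list, with 32.3 TPM in CTL and 225 TPM in HIOP.

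Antigen presentation genes went the same way. In the list of immunoproteasome and antigen presentation genes, which holds class I and class II genes, 13 of 20 were higher and none lower (median 1.21). The class II genes RT1-Da, RT1-Db1 and RT1-Ba were among the higher ones. Nlrc5, the activator of class I genes, was 12.1-fold higher (8.08 to 19.1), the peptide transporter gene Tap1 8.29-fold higher (6.32 to 11.04), and the class I gene RT1-A2 7.002-fold higher (5.99 to 8.23). B2m, the light chain of class I molecules, had 68.2 TPM in CTL and 202 TPM in HIOP. The MHC genes share sequence, and how reads were divided among them is not certain.

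Sensors of microbes and of tissue damage were higher in 14 of 24 cases and lower in 1 (median 1.06). Of these genes, 9 met the CPM minimum in HIOP alone, and of the 14 that met it in both libraries 5 were higher (median 0.77). Tlr2 had 16 and 306 counts and was 17.98-fold higher (10.9 to 31.9), and the fungal sugar receptor gene Clec7a was 19.04-fold higher (9.44 to 44.9). Clec4d, a related lectin receptor that was in no list, had 1 count in CTL against 388 in HIOP, a ratio of 365 (between 65.1 and 14446). The adaptor Ticam2, with 17 and 3 counts, was the member that was lower.

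Genes of activated macrophages were higher and those of resting microglia were divided. Of 20 genes of macrophage activation, 15 were higher and none lower (median 1.99). Of these genes, 6 met the CPM minimum in HIOP alone, and of the other 14 there were 9 higher (median 1.77). Lgals3 (galectin-3) had 152 counts in CTL against 1777 in HIOP and was 10.99-fold higher (9.31 to 13.1), and it was at 18.8 TPM in CTL and 179.6 TPM in HIOP. Among the 14 resting microglia genes, 3 were higher and 5 lower (median -0.12). The CPM minimum was met in CTL alone by 3 of them, all lower, and in HIOP alone by 1, which was higher. Of the other 10 there were 2 higher and 2 lower (median -0.08). P2ry12, the purine receptor that marks resting microglia, had 32 and 7 counts and was 4.86-fold lower (2.11 to 13.1), and Gpr34 was 4.49-fold lower (2.13 to 10.6), whereas Tyrobp, a signalling adaptor of all myeloid cells, was 8.46-fold higher (4.53 to 17.5). Of 23 lymphocyte and natural killer cell genes only 5 reached the level needed to be compared, and Ptprc, which all leukocytes carry, was 9.40-fold higher (6.84 to 13.2).

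Molecules that let leukocytes stick to vessels were among the higher genes. In the list of integrins and leukocyte adhesion, 14 of 26 were higher and none lower (median 1.10). Of these genes, 6 met the CPM minimum in HIOP alone, and of the other 20 there were 8 higher (median 0.64). Selp and Sele, the selectins of platelets and endothelium, had 2 and 224 counts and 9 and 246 counts, with a ratio of 105 (between 28.8 and 875) and a ratio of 25.7 (between 13.3 and 56.9). Itgb1, an integrin chain found in most cells, had 33.8 TPM in CTL and 124 TPM in HIOP and was 3.86-fold higher (3.65 to 4.10).

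The list of complement and clotting genes had 19 of 33 members higher and none lower (median 1.24). Of these genes, 9 met the CPM minimum in HIOP alone, and of the 23 that met it in both libraries 11 were higher (median 0.98). Plaur, the receptor of urokinase, had 1 count in CTL against 381 in HIOP, a ratio of 358 (between 63.9 and 14186). Serpinb2, an inhibitor of plasminogen activators, had 1 and 235 counts, a ratio of 221 (between 39.3 and 8764). Plau, urokinase itself and an enzyme it blocks, had 9 and 283 counts and was 29.6-fold higher (15.4 to 65.3).

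Acute-phase and lipid mediator genes were fewer. Of 9 acute-phase genes compared, 6 were higher and 1 lower (median 2.29). Of these genes, 4 met the CPM minimum in HIOP alone, and of the other 5 there were 2 higher and 1 lower (median 0.72). Ptx3, a secreted pattern recognition protein, had 8 counts in CTL against 1633 in HIOP and was 192-fold higher (97.2 to 445), while Agt, the precursor of angiotensin, was 3.03-fold lower (2.27 to 4.08). Of 19 genes of prostaglandins and leukotrienes, 7 were higher and 1 lower (median 0.67). The CPM minimum was met in HIOP alone by 4 of them, and of the other 15 there were 3 higher and 1 lower (median 0.23). Ptges, which makes prostaglandin E, was 21.7-fold higher (11.9 to 44.05), and Ptgs2, the inducible cyclooxygenase that feeds it, was 3.16-fold higher (2.66 to 3.77).

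Several of the most extreme genes belonged to no list. Tnfrsf12a, the receptor for the cytokine TWEAK, had 18 counts in CTL against 1081 in HIOP and was 56.5-fold higher (35.6 to 95.6). Runx1, a transcription factor of blood cell development, had 13 and 534 counts and was 38.6-fold higher (22.4 to 73.02). Tnfaip2, a gene induced by tumour necrosis factor, had 50 and 1464 counts and was 27.5-fold higher (20.8 to 37.3). Slc13a5, a citrate transporter, had 20 and 551 counts and was 25.9-fold higher (16.6 to 42.7), and PVR, the cell surface receptor CD155, was 20.4-fold higher (14.9 to 28.7). Lnpep was 34.6-fold higher (19.6 to 67.5) in counts but at 0 TPM in both libraries, so its value is uncertain. Mir221, with 0 and 52 counts and 0 TPM, is uncertain for the same reason.

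Many genes of the cytoskeleton and of the matrix at the cell surface were higher. Among 36 actin cytoskeleton genes, 15 were higher and 3 lower (median 0.75). Msn (moesin), which ties actin to the membrane, had 638 counts in CTL against 5142 in HIOP and was 7.58-fold higher (6.98 to 8.24), and Flnc, a filamin that cross-links actin, was 21.4-fold higher (16.3 to 28.8). Actb had 855 TPM in CTL and 1538 TPM in HIOP and was 1.91-fold higher (1.86 to 1.95). The members that were lower, Acta2 (3.74-fold), Myl9 (2.28-fold) and Tpm2 (2.09-fold), are the smooth muscle forms.

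Intermediate filaments and annexins had 13 of 34 members higher and 4 lower (median 0.55). Nes (nestin), the filament of immature and reactive glia, had 38 and 865 counts and was 21.4-fold higher (15.5 to 30.5). Anxa2 and its binding partner S100a10, which sit together under the membrane, were 5.67-fold higher (5.17 to 6.23) and 5.75-fold higher (5.20 to 6.37). The neurofilament genes Nefl and Nefm were lower, by 2.31-fold and 2.29-fold. Of 34 tubulins, kinesins and microtubule proteins 3 were higher and 2 lower (median -0.08), near the background. Among them, Tuba1c was 18.8-fold higher (11.2 to 34.02) and Tubb6 8.17-fold higher (6.77 to 9.95), whereas Tubb4a, a neuronal form, was 3.37-fold lower (3.07 to 3.69).

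Of 27 wound matrix genes, 12 were higher and 4 lower (median 0.68). Cd44, the receptor for hyaluronan, had 898 counts in CTL against 8967 in HIOP and was 9.39-fold higher (8.77 to 10.1), with 28.96 TPM in CTL and 262 TPM in HIOP. Ncan (neurocan), a proteoglycan of the neural matrix, had 236 and 4562 counts and was 18.2-fold higher (15.9 to 20.8). Thbs1, thrombospondin 1, was 9.03-fold higher (7.996 to 10.2). Matrix proteases and their inhibitors were higher in 14 of 24 cases and lower in 2 (median 1.49). Of these genes, 7 met the CPM minimum in HIOP alone, and of the other 17 there were 7 higher and 2 lower (median 0.55).

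Basement membrane genes behaved otherwise. Of 27 genes of collagens, laminins and basement membrane, 1 was higher and 4 were lower (median -0.13). Lamc1, a laminin chain, was 2.59-fold higher (2.42 to 2.77), and Col9a1, a collagen of the vitreous, was 3.92-fold lower (3.60 to 4.28). Lum (lumican, 4.23-fold), which is also on the cornea list, and Postn (periostin, 2.52-fold) were lower, and the cornea list was lower as a whole.

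In the fibroblast and epidermal growth factor list, 7 of 30 were higher and 4 lower (median 0.16). Fgf2, basic fibroblast growth factor, had 67 counts in CTL against 585 in HIOP and was 8.21-fold higher (6.37 to 10.7), and its receptor gene Fgfr1 had 474 and 2266 counts and was 4.49-fold higher (4.07 to 4.97). Fgf1 was 2.09-fold lower (1.83 to 2.38) and Fgfr4 7.76-fold lower (5.17 to 12.1). Of 22 MAP kinase phosphatases and feedback inhibitors, 6 were higher and none lower (median 0.38). The furthest up of those compared were Dusp6 and Spry2, which growth factor signals induce: Dusp6, a phosphatase of ERK kinases, was 8.83-fold higher (7.62 to 10.3), and Spry2 was 7.06-fold higher (6.04 to 8.28).

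Neurotrophic factors had 9 of 32 members higher and 5 lower, with a median of -0.06, near that of all genes. The 9 that were higher include Lif, Clcf1 and Osmr, given above, and also Igfbp3, a binding protein of insulin-like growth factors (5.27-fold, 3.90 to 7.25), and Vgf, a neuropeptide precursor (2.40-fold, 1.999 to 2.90). The receptor genes Ret (2.83-fold) and Gfra2 (3.25-fold) were lower, as were the growth factor genes Ptn (2.75-fold) and Igf1 (2.58-fold).

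Of 30 angiogenic and vasoactive genes, 10 were higher and 4 lower (median 0.07). Angptl4, an inhibitor of lipoprotein lipase, had 27 and 862 counts and was 30.02-fold higher (20.5 to 45.8), and Thbs2 was 4.61-fold higher (3.95 to 5.40). Vegfa, the main angiogenic factor, was flat, with 3418 counts in CTL against 3849 in HIOP and a ratio of 1.06 (between 1.01 and 1.109), and its receptor gene Kdr was 1.90-fold lower (1.84 to 1.97). Of 39 genes of the TGF-beta and BMP families, 4 were higher and 4 lower. Fst (follistatin), which binds activin, was 12.9-fold higher (5.66 to 36.03), and Bmp2 was 3.24-fold higher (2.74 to 3.85). Of 40 genes of the Wnt, Notch and Hedgehog pathways, 1 was higher (Wnt7b, 2.68-fold) and 6 were lower. Hes5, a target of Notch, was 8.12-fold lower (4.31 to 16.9), and Hhatl was 22.1-fold lower (12.4 to 43.3).

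Genes for making ribosomes and protein were higher as broad sets, by less than 2-fold in most members. All 31 ribosome biogenesis genes had a log2 ratio above 0, and 13 of them were at least 2-fold higher (median 0.91). Myc, the transcription factor known for driving this programme, had 19 counts in CTL against 842 in HIOP and was 41.7-fold higher (26.5 to 69.6). Npm1 (nucleophosmin) had 145 TPM in CTL and 382 TPM in HIOP and was 2.75-fold higher (2.61 to 2.90), and Fbl, which methylates ribosomal RNA, was 3.30-fold higher (2.62 to 4.17). Of 27 translation factors, 6 were higher, none lower, and 26 had a ratio above 1 (median 0.67). Eif5a was 2.26-fold higher (2.15 to 2.38), and Odc1, the enzyme that starts the synthesis of the polyamines from which its hypusine is made, had 1688 and 7479 counts and was 4.17-fold higher (3.95 to 4.39).

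Supply enzymes shared the direction. Of 20 tRNA synthetases, 19 had a ratio above 1 (median 0.46), with Tars at 2.497-fold (2.32 to 2.69). Nucleotide synthesis had 4 of 23 members higher (median 0.53), with Upp1, which salvages uridine, at 10.2-fold (6.79 to 15.8). Mat2a, which makes the methyl donor S-adenosylmethionine, had 3959 and 9890 counts and was 2.35-fold higher (2.26 to 2.44). Psat1 and Cbs, of serine synthesis and of transsulfuration, were lower, by 2.17-fold and 5.17-fold.

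Protein quality control differed little and evenly. All 31 proteasome subunits had a ratio above 1 and none reached 2-fold (median 0.47). Of 25 chaperones of the endoplasmic reticulum, 23 had a ratio above 1 and none reached 2-fold (median 0.42). Hspa5, the main one, had 4034 counts in CTL against 6916 in HIOP, a ratio of 1.61 (between 1.55 and 1.68). In the list of 25 cytosolic heat shock proteins only 3 were past 2-fold, all higher: Hspb1 (4.25-fold, 3.21 to 5.69), Cryab (2.99-fold, 2.88 to 3.11) and Bag3 (2.24-fold, 1.81 to 2.78). Cryab is also a lens crystallin, and the lens share was higher in HIOP. Of 26 autophagy genes 14 had a ratio above 1 (median 0.03).

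Stress programmes differed in how far they went. The ATF4 list had 4 of 22 members higher and none lower (median 0.32), with Atf3 at 9.62-fold (7.997 to 11.7) and Cebpb at 12.7-fold (9.52 to 17.3). Among 24 antioxidant genes, 8 were higher and none lower (median 0.61). Sod2, the superoxide dismutase of mitochondria, had 884 counts in CTL against 5385 in HIOP and was 5.73-fold higher (5.33 to 6.16). Slc7a11, the cystine carrier that supports glutathione synthesis, was 2.20-fold higher (2.10 to 2.31).

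Of 20 iron and metal genes, 8 were higher and 3 lower (median 0.48). Mt2A, a metallothionein that binds zinc and copper, had 44.2 TPM in CTL and 1171 TPM in HIOP and was 25.5-fold higher (20.5 to 32.2). Steap4, a metal reductase, had 47 and 1227 counts and was 24.5-fold higher (18.3 to 33.6), and Cp (ceruloplasmin), the copper protein that oxidises iron, had 2282 and 11901 counts and was 4.90-fold higher (4.69 to 5.13). Slc30a10, a manganese exporter, was 4.14-fold lower (3.34 to 5.15).

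Hypoxia targets were near level as a list at 12 h. Of 22 hypoxia target genes, 4 were higher and 2 lower, and the median was -0.10. Stc1 (stanniocalcin 1), with 269 counts in CTL against 2005 in HIOP, was the member furthest out, 7.01-fold higher (6.17 to 7.99). Hif1a itself had 10748 and 9693 counts, a ratio of 0.848 (between 0.825 and 0.872). Of 24 p53 targets and growth arrest genes 10 were higher and none lower (median 0.68). Gadd45g, a stress sensor, was 8.23-fold higher (6.83 to 10.004).

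Of 26 genes of DNA replication and mitosis, 6 were higher and none lower, with a median of 0.24. Kif11, a spindle motor, stood apart with 113 counts in CTL against 1800 in HIOP, 14.98-fold higher (12.4 to 18.3). Ccnd1, the cyclin of early growth phase, was 4.03-fold higher (3.58 to 4.55). Among 22 genes of the BCL2 family and caspases, 7 were higher and none lower (median 0.38). Bcl2a1, a survival gene of myeloid cells, had 0 and 124 counts and was at least 38.9-fold higher. Bid, which links death receptors to mitochondria, was 5.33-fold higher (3.21 to 9.35), and Cflar, an inhibitor of caspase-8, was 3.10-fold higher (2.54 to 3.79).

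Energy metabolism was largely level. The 31 nuclear genes of the respiratory chain had a median of 0.12 and the 12 mitochondrial ones a median of -0.18. Glycolysis had 1 of 21 members higher and 3 lower (median -0.13), and the citric acid cycle 1 and 1 of 24 (median -0.02). Hk2, the hexokinase of photoreceptors, had 8437 counts in CTL against 4280 in HIOP and was 2.10-fold lower (2.02 to 2.18). Pfkm, a subunit of phosphofructokinase, was 2.30-fold lower (2.12 to 2.49), and Pc, pyruvate carboxylase, which in neural tissue is glial, was 2.47-fold lower (2.15 to 2.84). Hk3, with 0 and 42 counts, is the form of myeloid cells.

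Single lipid genes differed widely while their lists did not. Plin2, the coat protein of lipid droplets, had 173 counts in CTL against 5528 in HIOP and was 30.04-fold higher (25.8 to 35.2), and its level in TPM went from 7.71 to 207 TPM. The list of lipid synthesis to which it belongs had 3 of 21 higher and 1 lower (median -0.09). Cpt1a, which admits fatty acids to mitochondria, had 4132 and 1850 counts and was 2.38-fold lower (2.25 to 2.51). Ch25h, which makes 25-hydroxycholesterol, was 8.27-fold higher (5.41 to 13.2). Cholesterol synthesis had 1 of 21 members higher and none lower (median 0.03).

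Of 14 enzymes of arginine, polyamines and tryptophan 6 were higher and 1 lower (median 0.42). Nos2, the inducible nitric oxide synthase, had 6 counts in CTL against 409 in HIOP, a ratio of 64.1 (between 29.2 and 176), and Ass1, which renews its substrate, had 596 and 2748 counts and was 4.34-fold higher (3.97 to 4.74). Acod1, which makes itaconate in macrophages, had 0 and 246 counts and was at least 77.1-fold higher. The enzymes of thyroid hormone were split: Dio3, which inactivates the hormone, had 48 and 1278 counts and was 25.03-fold higher (18.8 to 34.1), and Dio1, which can activate it, had 244 and 9 counts and was 28.8-fold lower (14.9 to 63.8). Of 20 enzymes for thyroid hormone, steroids and foreign compounds, 3 were higher and 8 lower (median -0.58). The CPM minimum was met in CTL alone by 4 of them, all lower, and in HIOP alone by 2. Of the other 14 there were 2 higher and 4 lower (median -0.55).

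Listed rod and cone genes differed in how many members passed 2-fold but little in their summed level. None of the 19 rod phototransduction genes passed 2-fold (median -0.14), though Pdc, a photoreceptor gene outside that list, was lower, as given above, whereas 8 of 14 cone genes were lower and none higher (median -1.08). Summed over the cone list, the share of counts was 0.152% (CTL) and 0.136% (HIOP). The ratio of these sums was 0.891, against 0.910 for the rod list. Such sums follow the most abundant members, and 12 of the 14 cone genes had a log2 ratio below 0. Guca1b is on both lists. Opn1mw, the green-sensitive cone opsin, had 806 counts in CTL against 248 in HIOP and was 3.46-fold lower (2.99 to 4.001), and Pde6c, the cone phosphodiesterase, was 2.44-fold lower (2.20 to 2.70). Of 33 genes of the cilium and of transport to the outer segment 2 were higher and none lower (median -0.21). Those 2 were Ift57, of the transport particle, with 614 and 2186 counts (3.35-fold, 3.06 to 3.67), and Nphp4, of the ciliary gate (2.44-fold, 2.28 to 2.60). The retinoid cycle had 2 of 24 members higher and 8 lower (median -0.29). Rdh10, a retinol dehydrogenase, was 3.19-fold higher (2.95 to 3.45), while Stra6, the receptor for retinol binding protein in the pigment epithelium, was 3.19-fold lower (2.54 to 4.04). Rrh, an opsin of the pigment epithelium, was 7.52-fold lower (6.48 to 8.77), and pigment epithelium markers as a list were lower, as given above.

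Receptors for transmitters were lower as a group. Of 17 ionotropic glutamate receptor genes, 11 were lower by 2-fold or more, with none higher, against 8.19% of all genes, and all 17 had a log2 ratio below 0 (median -1.09). Gria3, an AMPA receptor subunit, had 1512 counts in CTL against 570 in HIOP and was 2.82-fold lower (2.56 to 3.11), and Gria2, the most abundant of the list by TPM in CTL, had 51.3 TPM in CTL and 20.8 TPM in HIOP and was 2.21-fold lower (2.10 to 2.32). Grin2c and Grin2a, of the NMDA type, were 2.93-fold and 2.64-fold lower.

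The 20 GABA and glycine receptor genes had 8 members lower and none higher (median -0.96). Gabra4 had 334 and 83 counts and was 4.28-fold lower (3.36 to 5.51), and Gabrd was 3.71-fold lower (2.47 to 5.72). Of 37 metabotropic and amine receptors 12 were lower, among them Htr1b (7.75-fold, 4.41 to 14.7), and 3 were higher, among them the purine receptor gene P2ry2 (6.48-fold, 3.20 to 14.8). Of these 37, 3 met the CPM minimum in CTL alone and 2 in HIOP alone. Of the other 32 there were 1 higher and 9 lower (median -0.77).

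Lists of ion channels and of the release machinery also had medians below 0. Potassium channels had 9 of 36 members lower and 1 higher (median -0.71). Kcnk2, a background leak channel, was 5.83-fold lower (3.79 to 9.32), and Kcnc2, of fast-firing neurons, was 3.003-fold lower (2.60 to 3.48). Of 32 sodium and calcium channel genes 4 were lower and none higher (median -0.74). Scn1a had 1720 and 722 counts and was 2.53-fold lower (2.32 to 2.77). Synaptic vesicle genes had 6 of 38 members lower and none higher, and 37 had a log2 ratio below 0 (median -0.60). The complexin genes of conventional synapses, Cplx1 and Cplx2, were 2.82-fold and 2.33-fold lower, and Cplx4, the complexin of photoreceptor ribbon synapses, had a ratio of 0.919 (between 0.890 and 0.949).

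Inner retinal neurons showed this by type. Ganglion cells had 16 of 22 listed genes lower and 1 higher (median -1.18). Isl2, a transcription factor of a subset of these cells, had 42 and 5 counts and was 8.93-fold lower (3.54 to 28.9). Among 21 amacrine cell genes 10 were lower and none higher (median -0.98). The CPM minimum was met in CTL alone by 2 of them, and of the other 19 there were 8 lower (median -0.91). The cholinergic genes Slc5a7, Chat and Slc18a3 were the furthest out of the list: Slc5a7, the choline transporter, had 222 and 22 counts and was 10.7-fold lower (6.91 to 17.5), and Slc18a3, the vesicular acetylcholine transporter, was 7.37-fold lower (4.19 to 13.98). Calb2 (calretinin) had 234 TPM in CTL and 79.05 TPM in HIOP and was 2.79-fold lower (2.63 to 2.96). Bipolar cells had 1 of 15 genes lower and none higher (median -0.53), the lower one being Vsx1 (2.47-fold, 2.05 to 2.99).

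Transcription factors of retinal lineages were lower in 8 of 36 cases and higher in 2 (median -0.46). The CPM minimum was met in CTL alone by 3 of them, and of the other 33 there were 2 higher and 5 lower (median -0.45). Onecut1, of horizontal and ganglion cells, was 2.81-fold lower (2.14 to 3.71). Id1, an inhibitor of differentiation factors that BMP signals induce, had 143 and 920 counts and was 6.05-fold higher (5.07 to 7.27). Splicing factors were level as a list (1 higher and 3 lower of 40), and the 3 that were lower were neuronal: Rbfox1 (3.13-fold), Elavl4 (2.46-fold) and Elavl2 (2.41-fold). Ptbp1, the factor that neurons shut off, was the member that was higher (2.04-fold, 1.92 to 2.17).

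Of 21 clock genes 1 was higher and 3 were lower (median -0.42), with Dbp at 2780 and 1322 counts, 2.24-fold lower (2.09 to 2.39), and Ciart, a repressor of the clock, 2.63-fold lower (2.03 to 3.43). The time of day of each collection is not given in the sources used here. Neuropeptide genes had 4 higher and 5 lower of 26. Of these genes, 2 met the CPM minimum in HIOP alone, both higher, and 1 in CTL alone, which was lower. Of the other 23 there were 2 higher and 4 lower (median -0.44). Npy2r, a receptor for neuropeptide Y, had 1 and 59 counts, a ratio of 55.5 (between 9.58 and 2228). Nmb, at 12 and 32 counts, was 2.51-fold higher but lower in TPM, so its direction depends on the unit.

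Axon growth genes had 4 of 43 members higher and 6 lower (median -0.37), and 30 of the 43 had a log2 ratio below 0. The share that was higher is near the 8.77% of all genes. Those higher, Atf3, Gap43, Sox11 (3.89-fold, 2.85 to 5.41) and Klf6 (2.94-fold, 2.49 to 3.48), are among the genes known from regrowing axons. Ephb1, a guidance receptor, had 439 and 69 counts and was 6.77-fold lower (5.24 to 8.85).

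Genes of glia and of transport were more often lower than higher. Müller glia had 10 of 22 genes lower and 3 higher (median -0.85). The CPM minimum was met in CTL alone by 2 of them, and of the other 20 there were 3 higher and 8 lower (median -0.66). Gpr37, a glial receptor, had 2055 counts in CTL against 256 in HIOP and was 8.54-fold lower (7.49 to 9.76), Car14 and Car2, carbonic anhydrases, were 4.86-fold lower (4.35 to 5.45) and 3.43-fold lower (3.25 to 3.61), and Abca8a was 5.25-fold lower (4.89 to 5.64). Glul, glutamine synthetase, had 1012 TPM in CTL and 505 TPM in HIOP and was 1.85-fold lower (1.82 to 1.89). The higher members were Cp, Vim (2.37-fold, 2.28 to 2.46) and Clu (2.05-fold, 1.99 to 2.10).

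Of 32 pump and water transport genes, 8 were lower and 1 was higher (median -0.48). Transporters of transmitters were lower in 7 of 21 cases (median -0.71). Of these genes, 2 met the CPM minimum in CTL alone, and of the other 19 there were 1 higher and 5 lower (median -0.46). Slc6a11, a carrier of GABA, had 1925 and 594 counts and was 3.45-fold lower (3.14 to 3.79). Slc1a5, a carrier of glutamine, was the member that was higher, with 75 and 1240 counts, 15.5-fold higher (12.3 to 19.9). Tril and Slitrk2, in no list, belonged to the genes furthest down, with 1287 and 159 counts (8.61-fold, 7.30 to 10.2) and 1842 and 264 counts (7.42-fold, 6.52 to 8.47). Rftn2, also in no list, had 178 and 5 counts and was 37.9-fold lower (15.9 to 118).

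Vessel genes parted between the wall and the lining. Of 14 genes of pericytes and smooth muscle 7 were lower and none higher (median -0.95). The CPM minimum was met in CTL alone by 2 of them, and of the other 12 there were 5 lower (median -0.83). Acta2, smooth muscle actin, had 855 counts in CTL against 243 in HIOP and was 3.74-fold lower (3.24 to 4.33), and Rgs5, a pericyte gene, was 2.75-fold lower (2.28 to 3.35). The 21 endothelial genes had a median of 0.05, with 3 higher and 3 lower. The members that were lower, Slco1a4 (7.42-fold, 5.84 to 9.53), Mfsd2a (2.48-fold, 1.73 to 3.60) and Cldn5 (2.31-fold, 1.78 to 3.01), are genes of the blood-retina barrier. Not all barrier genes of the list were lower. Slc2a1, its glucose transporter, had 4823 counts in CTL against 4954 in HIOP, a ratio of 0.966 (between 0.928 and 1.005). Eng (endoglin, 3.19-fold, 2.71 to 3.76), Flt4 and Flt1 were higher. Smooth muscle is also found in iris and ciliary body, and the part of these tissues in the smooth muscle results was not tested. Of 14 listed genes of these tissues, none of them on the smooth muscle list, 1 was higher, Mgp (3.79-fold, 3.34 to 4.30), and none lower. Junction genes had 3 higher and 7 lower of 35. The CPM minimum was met in HIOP alone by 2 of them, both higher, and in CTL alone by 2. Of the other 31 there were 1 higher and 6 lower. Crb1, of the outer limiting membrane that Müller glia form with photoreceptors, had 5221 and 1327 counts and was 4.18-fold lower (3.94 to 4.45), and Cldn1 was 7.02-fold higher (5.89 to 8.41).

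The 2 members of 24 pairs of related genes, chosen with earlier results of these data known, were set side by side. The first member was set as the usual form in neural or resting tissue. The counts of pairs that follow are therefore in part set by the choice. The second member of the pair had the higher log2 ratio in 22, the others being Hk2 and a heat shock gene with no count in either library. It was at least 2-fold higher in 11 pairs, and the first member was at least 2-fold lower in 7. In 10 pairs the order of the 2 levels in TPM was different in the 2 libraries. The metallothioneins started level, with Mt3 going from 46.3 to 7.50 TPM and Mt2A from 44.2 to 1171 TPM. Timp3, the inhibitor stored in the matrix, went from 72.8 to 26.3 TPM, while Timp1, the secreted form, went from 6.66 to 243 TPM.

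The endothelins crossed, with Edn3 from 14.2 to 2.93 TPM and Edn2 from 3.47 to 14.8 TPM, and so did the beta tubulins, with Tubb4a from 93.2 to 25.2 TPM and Tubb6 from 6.87 to 51.3 TPM. Sod1, the cytosolic dismutase, stood at 222 to 196 TPM while Sod2 went from 38.01 to 199 TPM and drew level with it. Hk2 was the second member that was lower, from 128 to 55.5 TPM beside 70.3 to 57.1 TPM for Hk1. The arginases Arg2 and Arg1 also changed order, but both differed little between the libraries (6.65 to 4.73 TPM and 5.93 to 5.25 TPM). Eef1a1 and Ldha were the more abundant members in both libraries, and their partners Eef1a2 and Ldhb were lower, by 1.36-fold and 1.90-fold.

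**Figure D4:**
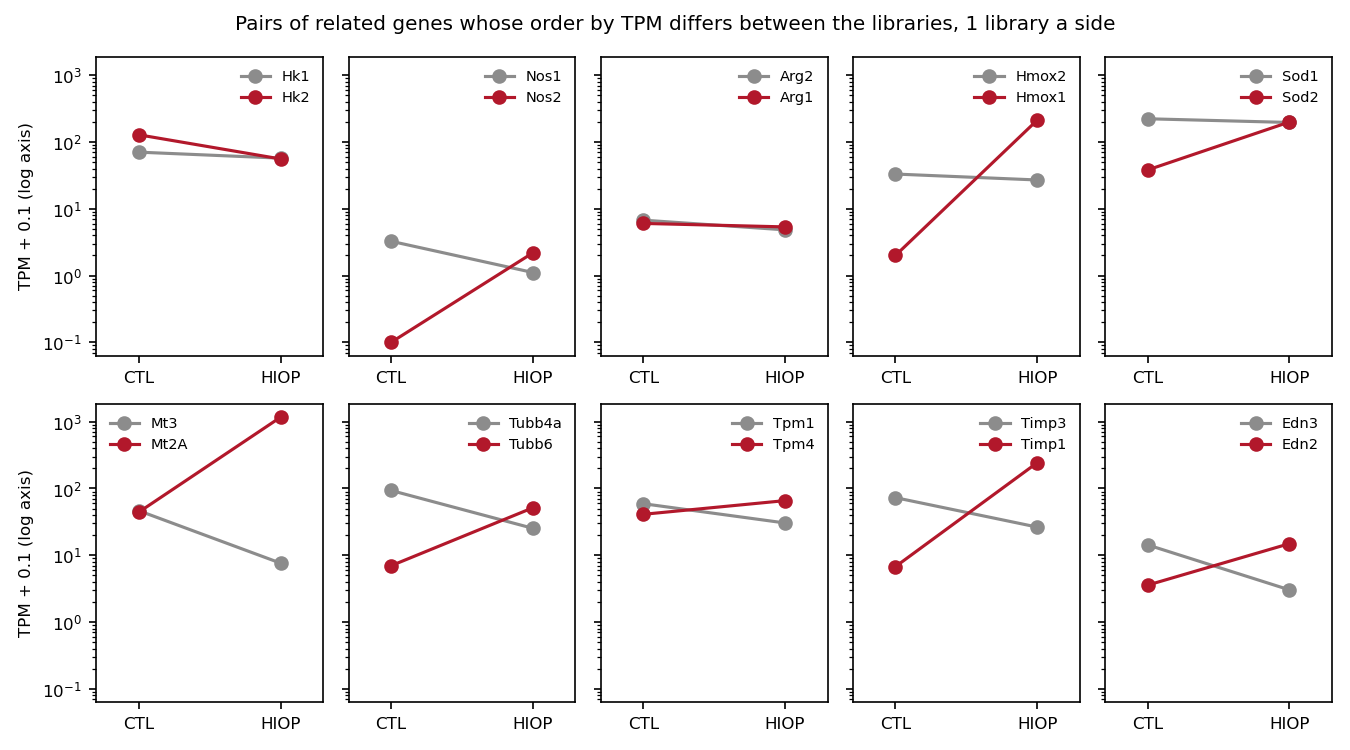
Each panel shows the deposited TPM plus 0.1 (log axis) of 2 related genes in CTL and HIOP, 1 library a side, for the 10 pairs whose order differs between the libraries; grey is the first member of the pair and red the second. The lines cross widely for Mt3 and Mt2A, Timp3 and Timp1, and Hmox2 and Hmox1, and barely for Arg2 and Arg1.

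A grouping by gene symbol, which needs no chosen list, gave 187 families of at least 10 genes. The families with the largest share of higher members were Ccl (11 of 12), Cxcl (9 of 12), RT, the rat MHC genes (11 of 16), Il (24 of 42) and Mmp (8 of 14). These shares cover only genes that met the CPM minimum, and some of them met it in HIOP alone. In the lists above, 26 of 40 ligand genes and 7 of 24 matrix protease genes did so, and all of these were higher. The shares of such families are therefore in part set by the minimum. Those with the largest share of lower members were Pou (6 of 10), Slc6 (7 of 12), Krt (9 of 17), Kcnj (5 of 11) and Cyp (11 of 26). The Krt family holds the keratins of cornea, and the cornea list was lower as a whole. Collagens (Col) had 13 of 37 members lower and 0 higher. Zinc finger genes (Zfp), the largest family with 234 members, had 5 higher and 7 lower, well under the background, and 40 families had no member past 2-fold.

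Some of the higher genes were neighbours. Of 12872 genes that could be placed in order on the RefSeq assembly GRCr8, 129 of the 1154 higher ones stood in 37 runs of at least 3 neighbours that were all higher, and 62 of the 1013 lower ones in 20 such runs. The share that gene order alone would give was not computed. The 5 longest higher runs held 5 genes each. They were the chemokines Ccl5, Ccl9, Ccl6, Ccl3 and Ccl4 on chromosome 10, Cxcl2, Cxcl1, Cxcl3, Pf4 and Cxcl6 on chromosome 14, the lectin receptors Clec4a1, Clec4a3, Clec4d and Clec4e with Cd163 on chromosome 4, the proteases Mmp13, Mmp3, Mmp10, Mmp8 and Mmp7 on chromosome 8, and S100a3, S100a4, S100a6, S100a8 and S100a9 on chromosome 2. These are clusters of related genes, and Pf4 was higher in counts but lower in TPM. Among the lower runs, Abca8, Abca8a and Abca9 stood together on chromosome 10. Close paralogs can share reads, so neighbours of 1 family are not independent.

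Promoters were searched for the letters of 13 known motifs, from 250 bases before to 50 after the start, on both strands, in the RefSeq table of GRCr8. The kappa B motif GGANTTTCC, to which NF-kB binds, was in 7.03% of promoters of genes at least 4-fold higher, in 1.71% of those 2 to 4-fold higher, in 1.22% of those within 2-fold, in 0.724% of those at least 2-fold lower, and in 1.24% of all promoters in the table. The AP-1 motif TGANTCA, to which FOS and JUN proteins bind, was in 16.8%, 7.24%, 4.42%, 5.50% and 7.33% in the same order. The ISRE motif GAAANNGAA, of interferon factors, was in 18.96%, 12.0%, 6.36%, 7.53% and 9.41%. The GAS motif TTCCNGGAA, of STAT proteins, was in 3.67%, 2.86%, 1.04%, 0.145% and 1.252%. The classes held 327, 525, 8290 and 691 promoters.

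The TATA box was also commoner in promoters of genes at least 4-fold higher, and other letters differed little or the other way. The TATA box TATAAA was in 20.5% of promoters of genes at least 4-fold higher and in 6.08% of those within 2-fold, and the GC box GGGCGG in 45.9% and 63.6%. The hypoxia motif TACGTG was in 2.45% and 3.82%, and the ARE motif TGACNNNGC, which can overlap the AP-1 letters, in 14.98% and 14.91%. The median GC content was 56.0% and 61.3%, so base composition differs between the classes as well. By list, the ISRE letters were in 21 of 25 promoters of interferon-induced genes, the kappa B letters in 6 of 16 of the NF-kB list, the heat shock motif GAANNTTC in 11 of 21 of the heat shock list, and the hypoxia letters in 6 of 16 of the hypoxia list, whose median ratio was near that of all genes. A match is a description of letters and shows no binding.

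**Figure D5:**
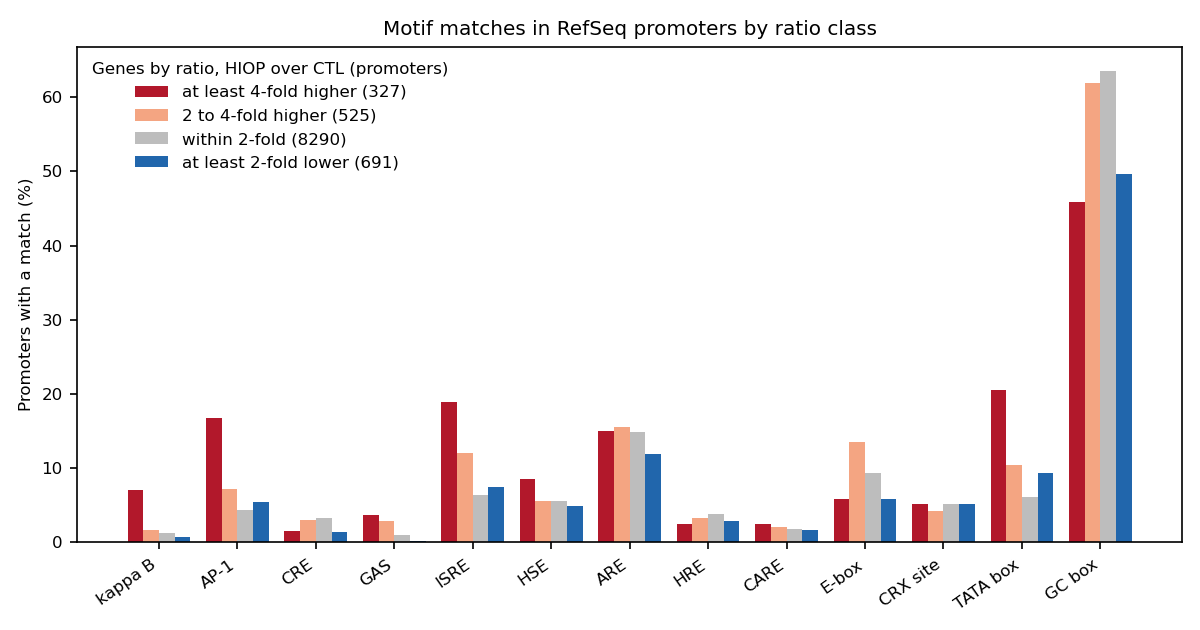
Bars give the percentage of RefSeq promoters with a match to each motif, by the ratio class of the gene (red at least 4-fold higher, orange 2 to 4-fold higher, grey within 2-fold, blue at least 2-fold lower, with the number of promoters in brackets). The red bars stand above the grey ones for kappa B, AP-1, ISRE, GAS and TATA box and below them for the GC box.

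The 120 bases before the start of 9 genes, chosen after their values were seen, show these letters in place. Capitals mark the motifs named here for each gene, and other motifs of the search are left in lower case. The chemokine genes Cxcl6 and Cxcl1 carry GGAATTTCC and the cytokine gene Il6 GGATTTTCC. Mmp3 and Mmp10, neighbours on chromosome 8, each carry TGAGTCA followed by TATAAA, and Gbp2 and Ifit3 carry the ISRE letters on the reverse strand and TGAGTCA. Cngb1, a rod channel gene within 2-fold (9837 and 9462 counts), carries the CRX letters TAATCC at 2 places, and Ciart, a clock gene that was lower, carries the E-box CACGTG at 3. The E-box was in 5.81% of promoters of genes at least 4-fold higher and in 13.5% of those 2 to 4-fold higher. It was in 9.30% of those within 2-fold and in 5.79% of those at least 2-fold lower. The CRX letters were in 5.20%, 4.19%, 5.21% and 5.21% in the same order. Coordinates are of GRCr8.
Cxcl6 (chr14:17596418-17596537, minus strand): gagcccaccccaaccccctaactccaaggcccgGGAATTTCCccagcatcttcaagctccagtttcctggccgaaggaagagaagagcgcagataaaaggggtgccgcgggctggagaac
Cxcl1 (chr14:17479322-17479441, minus strand): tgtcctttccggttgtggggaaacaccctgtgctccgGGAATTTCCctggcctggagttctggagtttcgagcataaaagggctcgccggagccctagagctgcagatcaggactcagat
Il6 (chr4:5894576-5894695, minus strand): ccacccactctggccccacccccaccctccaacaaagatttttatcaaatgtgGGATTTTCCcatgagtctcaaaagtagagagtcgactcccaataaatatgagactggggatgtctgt
Mmp3 (chr8:12925161-12925280, plus strand): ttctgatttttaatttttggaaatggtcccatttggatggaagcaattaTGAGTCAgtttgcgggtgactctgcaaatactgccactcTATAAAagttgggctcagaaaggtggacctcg
Mmp10 (chr8:12974587-12974706, plus strand): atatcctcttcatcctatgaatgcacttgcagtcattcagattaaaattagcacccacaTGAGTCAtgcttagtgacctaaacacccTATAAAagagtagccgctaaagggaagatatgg
Gbp2 (chr2:234005607-234005726, plus strand): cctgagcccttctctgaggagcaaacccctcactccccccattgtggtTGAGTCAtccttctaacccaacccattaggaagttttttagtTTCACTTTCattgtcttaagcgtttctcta
Ifit3 (chr1:241527206-241527325, plus strand): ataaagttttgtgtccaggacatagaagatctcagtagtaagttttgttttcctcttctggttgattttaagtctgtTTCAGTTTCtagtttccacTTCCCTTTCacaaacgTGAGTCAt
Cngb1 (chr19:9732526-9732645, plus strand): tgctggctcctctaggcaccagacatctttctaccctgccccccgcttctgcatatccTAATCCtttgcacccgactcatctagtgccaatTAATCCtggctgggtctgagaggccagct
Ciart (chr2:186112247-186112366, minus strand): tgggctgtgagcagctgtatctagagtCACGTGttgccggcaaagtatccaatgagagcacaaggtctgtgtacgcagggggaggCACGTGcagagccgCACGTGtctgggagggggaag

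Beside Cxcl6, Cxcl1 and Mmp3, whose counts in CTL were 1, 4 and 1, the other printed genes had values as follows. Il6 had 0 counts in CTL against 140 in HIOP, at least 43.9-fold higher. Mmp10 had 1 and 613 counts, a ratio of 576 (between 103 and 22802). Gbp2 had 49 and 5846 counts, or 1.89 TPM in CTL and 193 TPM in HIOP. The first match in Cxcl6 begins 87 bases before the start and that in Cxcl1 83 bases before it. In Mmp3 and Mmp10 the AP-1 letters begin 71 and 61 bases before the start and the TATA letters 32 and 33.

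Abundant genes that did not differ set the scale. Gapdh, the enzyme often used for reference, had 23217 counts in CTL against 25057 in HIOP, a ratio of 1.01 (between 0.997 and 1.03). Sag had a ratio of 0.974 (between 0.962 and 0.986), Ddx5, an RNA helicase, a ratio of 0.994 (between 0.977 and 1.01), and Kif1b, a motor for synaptic vesicle precursors, a ratio of 1.04 (between 1.02 and 1.05). In all, 3311 genes had an interval that lay wholly within 1.25-fold of no difference. Of 17 common reference genes 1 was past 2-fold, B2m, and Actb and Eef1a1, both in use as references, had a ratio of 1.91 (between 1.86 and 1.95) and a ratio of 1.60 (between 1.57 and 1.62).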

How the data were processed

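Per the labels, rat retina was profiled by directional RNA sequencing after ribosomal RNA depletion, and the submitters' processing notes name STAR 2.5.4b, RSEM 1.3.1 and the build Rnor_6.0. The authors deposited whole-number counts per gene for each library, and separately TPM values that sum to 1000000. The 2 kinds of value did not always match, so TPM served only as a check and for levels between genes. The other library was not used in the comparison except for 1 alternative scaling.

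Counts were scaled by TMM (edgeR 4.0.16, R 4.3.3), and a gene was kept where either library reached a CPM of 1. Log2 ratios carried a prior count of 2, and log2 TPM ratios a pseudocount of 0.5. Intervals are exact (Clopper-Pearson, 95%, scipy 1.17.1), and the floor was 3 counts per library. The calculation was tested on simulated data. Alternatives were the scaling (totals, DESeq2 1.42.0 size factors, all 3 libraries, totals without the most abundant genes), the prior count, the CPM filter, the fold limit and TPM. Protein length had been planned as the measure of gene size, and gene span in the RefSeq table was used instead.

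The comparison, the gene lists and the pairs were chosen with earlier results of these data known. Of the list names 2400 distinct genes matched by symbol, 30 by a RefSeq synonym, and 95 names had no match. For 7 symbols on more than 1 row, the row with the highest count in CTL was used. Named genes followed a rule: the 12 largest gains and losses of CPM, the 15 most extreme unlisted genes in each direction by the interval bound nearer to no difference, up to 4 such members of each list in each direction and its member with the highest TPM, all pairs, the 10 most abundant genes with a ratio between 0.9 and 1.11, up to 3 members of the 5 families with the largest share past 2-fold in each direction, and the 5 longest neighbour runs in each direction. Cngb1, Cplx4, Hspa5, Lgals3, Tnfaip3 and Vegfa fall outside it and were chosen after their values were seen. A few genes that the rule names are not reported here.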

Additional observations from a re-analysis of the deposited data

How the results depend on the processing

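Beside 1336 higher and 1249 lower genes past 2-fold, a limit of 1.5-fold gave 2403 and 2711, and a limit of 4-fold gave 513 and 209. With no filter on CPM the lower genes numbered 2117, and with a CPM of at least 5 they numbered 771; fewer or more weakly expressed genes enter there by construction. Under the other settings run (4 other scalings, 2 other prior counts, TPM, genes past 2-fold in counts and TPM alike, and leaving out neighbouring tissue genes, these last chosen after seeing the data) both counts stayed within 1.5 times of these. With the deposited TPM, 2 of the 590 named genes changed direction: Nmb went from 1.20 to -0.12 and Pf4 from 1.107 to -2.61 on the log2 scale, and the cause was not tested. Another 308 moved by more than their counting interval, and 21 of the 101 lists moved. With 1 library a side no library could be left out. No paired analysis was possible because each group had 1 library. Depth limits the weakest genes most.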
